A study of Cavia porcellus with 44 samples.

Results

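The genes described here code for the structural extracellular matrix of the liver and for its basement membranes. They were chosen by name alone, from the symbols of the deposited variance-stabilized table: collagen chains, laminin subunits, nidogens, fibulins, fibrillins, EMILINs, EFEMP, MFAP, LTBP and thrombospondin families, lysyl oxidases, and 14 matrix genes listed singly. The rule found 45 of the 7747 genes in that table. Of the 14 listed singly, 7 were present, namely AGRN, LUM, BGN, FN1, ASPN, FMOD and SPARC. A further 7 matching symbols (COL19A1, COL25A1, COL28A1, EMILIN3, FBN2, MFAP5 and OGN) were in the count table of 11967 symbols with totals of 20 to 193 counts over all animals, under the minimum of 200, and were not tested. The main chains of collagens I and III, COL4A1, DCN, ELN, HSPG2, LOX, POSTN, TNC and VCAN were not analysed here.

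Liver RNA came from 44 female Hartley guinea pigs, a species that, like humans, cannot make vitamin C (vitC) and depends on the feed for it. All livers were sampled at week 32. LFH animals (n = 8, labelled healthy) ate low fat feed with high vitC throughout. HFH animals (n = 8, labelled NASH, non-alcoholic steatohepatitis) ate feed high in fat, cholesterol and sucrose with high vitC throughout. The other 4 groups shared a first period of 16 weeks on high fat feed with low vitC. HFL/HFL animals (n = 10, labelled NASH) then stayed on it and HFL/HFH animals (n = 6, labelled NASH) moved to high vitC on the same fat level. HFL/LFL and HFL/LFH animals (n = 6 each, labelled NAFLD, non-alcoholic fatty liver disease) moved to low fat feed with low or high vitC for the last 16 weeks. The low fat groups were pair-fed to their high fat counterparts, and the animals sequenced in the 3 groups of 6 were a random subset. Each library is poly-A RNA from the left lateral lobe of 1 animal.

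Matrix outside the cell has 2 main forms. Interstitial matrix is built of fibrillar collagens that lysyl oxidases crosslink, with elastic microfibrils, proteoglycans and fibronectin around them, and it is the material of scars. Basement membranes are thin sheets of laminin trimers and collagen IV tied together by nidogens and heparan sulphate proteoglycans such as agrin, and they underlie bile ducts and blood vessels. Sinusoids of the healthy liver lack a continuous basement membrane, and hepatic stellate cells and portal fibroblasts are the known main sources of liver collagen. VitC is a cofactor of the hydroxylases that modify collagen chains after translation, a step that RNA levels do not show.

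Total counts per animal were 21133807 to 35427724. Levels below are CPM, library-size-scaled counts by edgeR's effective library sizes, given as the median of a group with its lowest and highest animal in parentheses. CPM is not divided by gene length, so levels are compared within a gene only. Differences are log2 fold changes ± SE from edgeR's quasi-likelihood test, with p-values adjusted by Benjamini-Hochberg over 7750 genes, and "called" means an adjusted p under 0.05. ALB, a defining gene of hepatocytes, ran from 8482 to 171400 CPM. 2 animals stood apart for the matrix genes. HFH animal 6 had the highest level of its group for 24 of the 45 genes, as did HFL/LFL animal 44. Among the called differences reported here, those that moved most without either are given below. High over low fat differences that were not called were not followed in this way. These 24 genes of HFL/LFL animal 44 included LAMA4, FBLN5 and COL2A1, at 9.07, 56.7 and 1.33 CPM (next 4.96, 27.2 and 0.339). The counts under AGRN were identical in every animal to those under ISG15, an interferon-induced gene, so the pair cannot be told apart. MFAP1, a splicing factor, and MFAP3L carry the family prefix only, and MFAP5.1 is a second row under the name MFAP5.

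On high fat feed more matrix genes were called higher than lower in each of 3 comparisons, at high and at low vitC. HFH over LFH called 34 of 45, with 28 higher and 6 lower, where 49.3% of all genes were called (27.7% higher and 21.7% lower). HFL/HFH over HFL/LFH called 22 higher and 6 lower, against 35.9% of all genes (19.4% higher and 16.5% lower). HFL/HFL over HFL/LFL called 20 higher and 5 lower, against 37.8% of all genes (19.7% higher and 18.1% lower). The median log2 fold change of the 45 was 1.12, 0.86 and 0.79 in that order, beside 0.06, 0.01 and 0.03 over all genes. The groups did not overlap for 10, 16 and 5 of the 45, beside 16.9%, 16.2% and 9.90% of all genes. These 3 comparisons share no animal. In each of them, 18 matrix genes were higher on high fat (13.4% of all genes were) and 5 were lower (10.5% of all genes), and no matrix gene was called in opposite directions. Without HFH animal 6, HFH over LFH called 33 and the genes higher in each were 17. Among the called HFH over LFH differences, those that moved most without this animal were of COL22A1, COL8A2, LAMA4, SPARC and FMOD. They then stood at 2.56, 2.20, 1.259, 1.19 and 2.04. Without HFL/LFL animal 44 the called HFL/HFL over HFL/LFL differences of LTBP2, MFAP2, THBS3 and FMOD rose to 2.55, 1.56, 1.68 and 2.08, and that of COL4A6 went to -0.69.

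**Figure D1:**
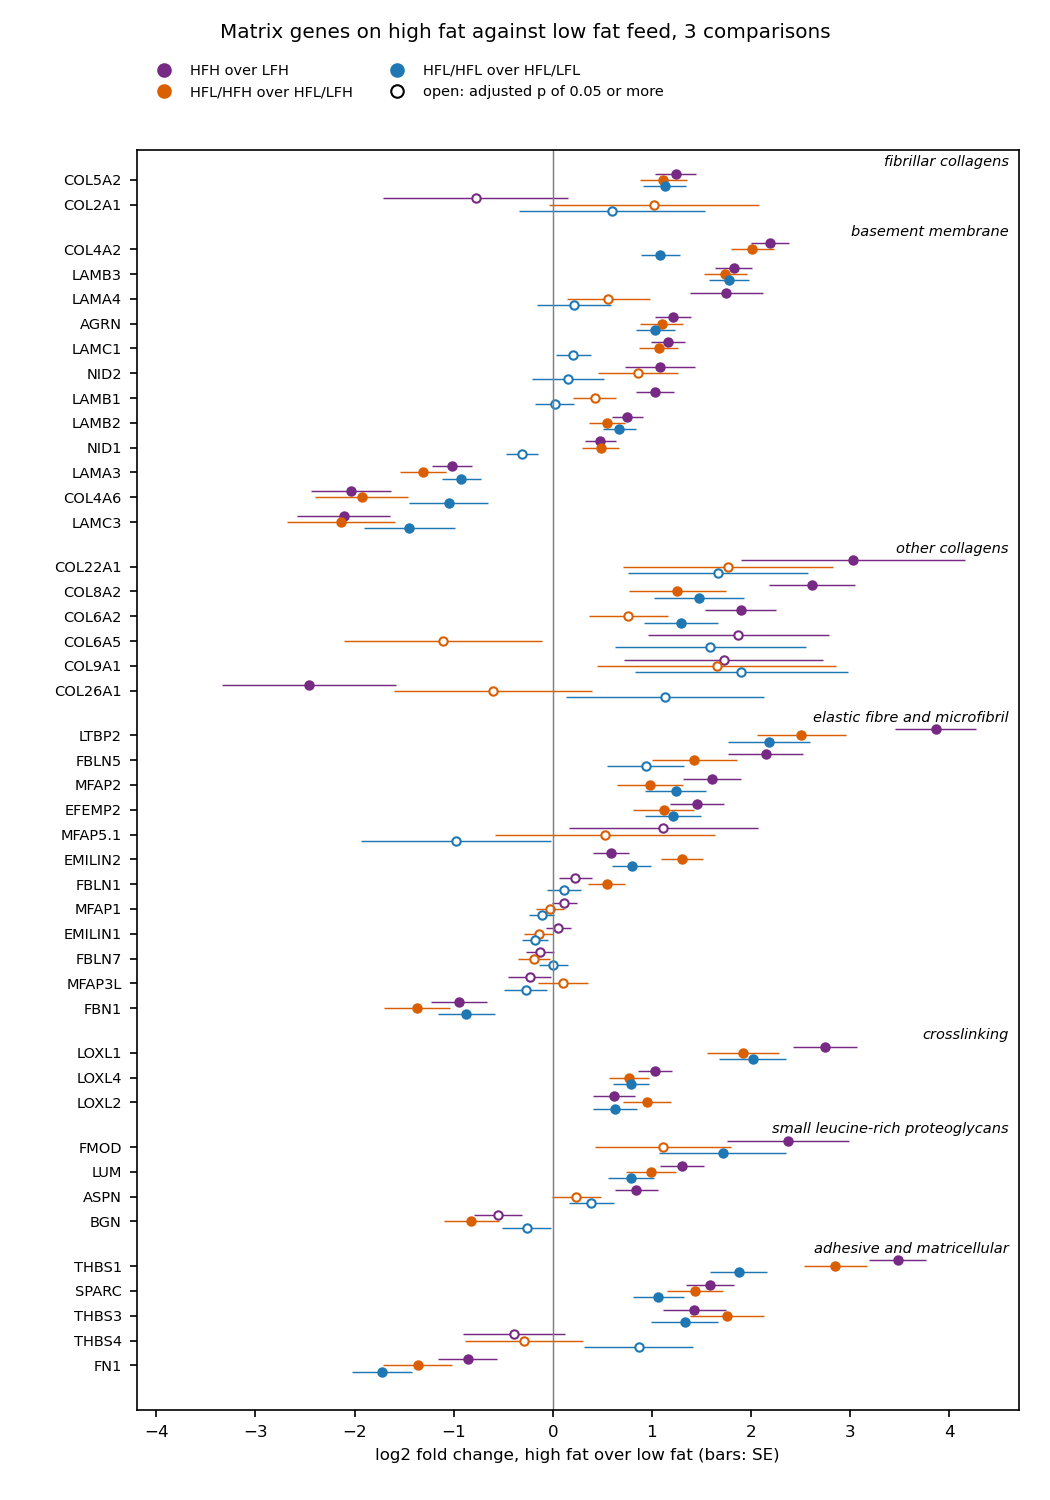
Log2 fold change of 44 matrix genes (x axis, high fat over low fat, bars are the SE) in 3 comparisons, by class (y axis); filled points have an adjusted p under 0.05. Most points lie right of 0, THBS1 and LTBP2 reach 3.48 and 3.87 in HFH over LFH, and COL4A6, LAMC3, LAMA3, FBN1 and FN1 lie left of 0 in all 3.

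The genes higher in each comparison included COL4A2, COL5A2, COL8A2, LAMB2, LAMB3, AGRN, EFEMP2, EMILIN2, LTBP2, MFAP2, LOXL1, LOXL2, LOXL4, LUM, SPARC, THBS1 and THBS3. The 5 lower in each were COL4A6, LAMA3, LAMC3, FBN1 and FN1. COL2A1, COL6A5, COL9A1, EMILIN1, FBLN7, MFAP1, MFAP3L, MFAP5.1 and THBS4 were called in none of the 3. As a share of all counts, the 45 genes made up a median of 0.602% in LFH (0.503% to 0.787%) and 0.981% in HFH (0.737% to 1.70%), the top value being HFH animal 6. The medians were 0.666% in HFL/LFH (0.543% to 0.853%) and 0.796% in HFL/HFH (0.730% to 1.055%), and 0.820% in HFL/LFL (0.729% to 1.151%) and 0.813% in HFL/HFL (0.603% to 0.992%), so the low vitC pair had nearly equal medians. FN1 alone carried much of this share, and moved the other way. Without FN1 the share was 0.200% to 0.440% in all 20 low fat animals and 0.425% to 1.46% in all 24 high fat animals. In whole tissue, fewer cells of a type and less RNA per cell cannot be told apart.

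The thrombospondins and SPARC link cells to the matrix or regulate it rather than build fibres, and fibronectin also links cells to it. THBS1, which codes for a secreted glycoprotein that can activate latent TGF-beta, had the smallest p of the 45 in HFH over LFH. THBS1 was at 14.04 CPM (9.41 to 19.7) in LFH, 19.4 (12.6 to 44.5) in HFL/LFH and 26.5 (22.8 to 88.2) in HFL/LFL. THBS1 reached 173 CPM (84.2 to 223) in HFH, 175 (72.2 to 254) in HFL/HFH and 141 (83.9 to 217) in HFL/HFL. THBS1 ranges did not overlap in HFH over LFH and HFL/HFH over HFL/LFH and overlapped in HFL/HFL over HFL/LFL. HFL/LFL animal 17, at 88.2 CPM, lay within the range of HFL/HFL. The log2 fold change of THBS1 was 3.48 ± 0.28 in HFH over LFH (adjusted p = 2.46e-13), 2.85 ± 0.32 in HFL/HFH over HFL/LFH (adjusted p = 2.29e-09) and 1.88 ± 0.29 in HFL/HFL over HFL/LFL (adjusted p = 1.68e-06). SPARC codes for a collagen-binding protein of remodelling tissue. SPARC was at 360 CPM (297 to 428) in LFH, 285 (219 to 395) in HFL/LFH and 366 (327 to 471) in HFL/LFL. SPARC was at 869 CPM (489.7 to 2862) in HFH, 767 (638 to 1082) in HFL/HFH and 776 (456 to 1389) in HFL/HFL, the 2862 CPM being HFH animal 6. SPARC ranges did not overlap in HFH over LFH and HFL/HFH over HFL/LFH and overlapped in HFL/HFL over HFL/LFL. Its differences were 1.58 ± 0.24 in HFH over LFH (adjusted p = 6.80e-07), 1.44 ± 0.28 in HFL/HFH over HFL/LFH (adjusted p = 6.85e-05) and 1.07 ± 0.26 in HFL/HFL over HFL/LFL (adjusted p = 0.000979), and without HFH animal 6 the first was 1.19. THBS3, another thrombospondin, moved the same way at few counts. THBS3 had 1.79 CPM (0.4205 to 4.08) in LFH, 1.28 (0.9497 to 2.94) in HFL/LFH and 2.07 (1.16 to 4.91) in HFL/LFL. THBS3 had 3.899 CPM (2.33 to 10.7) in HFH, 4.99 (3.46 to 5.91) in HFL/HFH and 6.06 (3.42 to 9.11) in HFL/HFL. THBS3 ranges did not overlap in HFL/HFH over HFL/LFH and overlapped in HFH over LFH and HFL/HFL over HFL/LFL. Its log2 fold changes were 1.43 ± 0.32 in HFH over LFH (adjusted p = 0.000227), 1.76 ± 0.37 in HFL/HFH over HFL/LFH (adjusted p = 0.000208) and 1.33 ± 0.34 in HFL/HFL over HFL/LFL (adjusted p = 0.00166).

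Fibronectin fell on high fat feed. FN1 is read here without splice forms, so the plasma form that hepatocytes are known to secrete and the cellular form of scars are counted together. FN1 was at 3640 CPM (2698 to 7789) in LFH, 5411 (1897 to 8475) in HFL/LFH and 5814 (2883 to 9130) in HFL/LFL. FN1 was at 2359 CPM (1078 to 4229) in HFH, 2017 (1210 to 2500) in HFL/HFH and 1660 (721 to 3156) in HFL/HFL. FN1 ranges overlapped between high and low fat groups in each comparison. FN1 was called lower in each comparison, with log2 fold changes of -0.86 ± 0.30 in HFH over LFH (adjusted p = 0.0158), -1.36 ± 0.35 in HFL/HFH over HFL/LFH (adjusted p = 0.00185) and -1.72 ± 0.30 in HFL/HFL over HFL/LFL (adjusted p = 1.58e-05). The first call was lost without LFH animal 5 (-0.70, adjusted p = 0.0538). Of 10 hepatocyte markers listed 3 were tested, and 3 were called lower in HFH over LFH, 1 in HFL/HFH over HFL/LFH and 2 in HFL/HFL over HFL/LFL, beside 21.7%, 16.5% and 18.1% of all genes. ALB was called lower in each, with -1.60 ± 0.33 (adjusted p = 8.21e-05) in HFH over LFH. The summed level of the list was 99060 to 215400 CPM in LFH and 20530 to 87960 CPM in HFH. It was 39800 to 68360 CPM in HFL/HFH and 68680 to 200400 CPM in HFL/LFH. It was 26970 to 79060 CPM in HFL/HFL and 74740 to 169000 CPM in HFL/LFL. The part of this in the FN1 values was not tested. THBS4 was called in no comparison and ranged from 0.221 to 9.15 CPM over all animals.

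**Figure D2:**
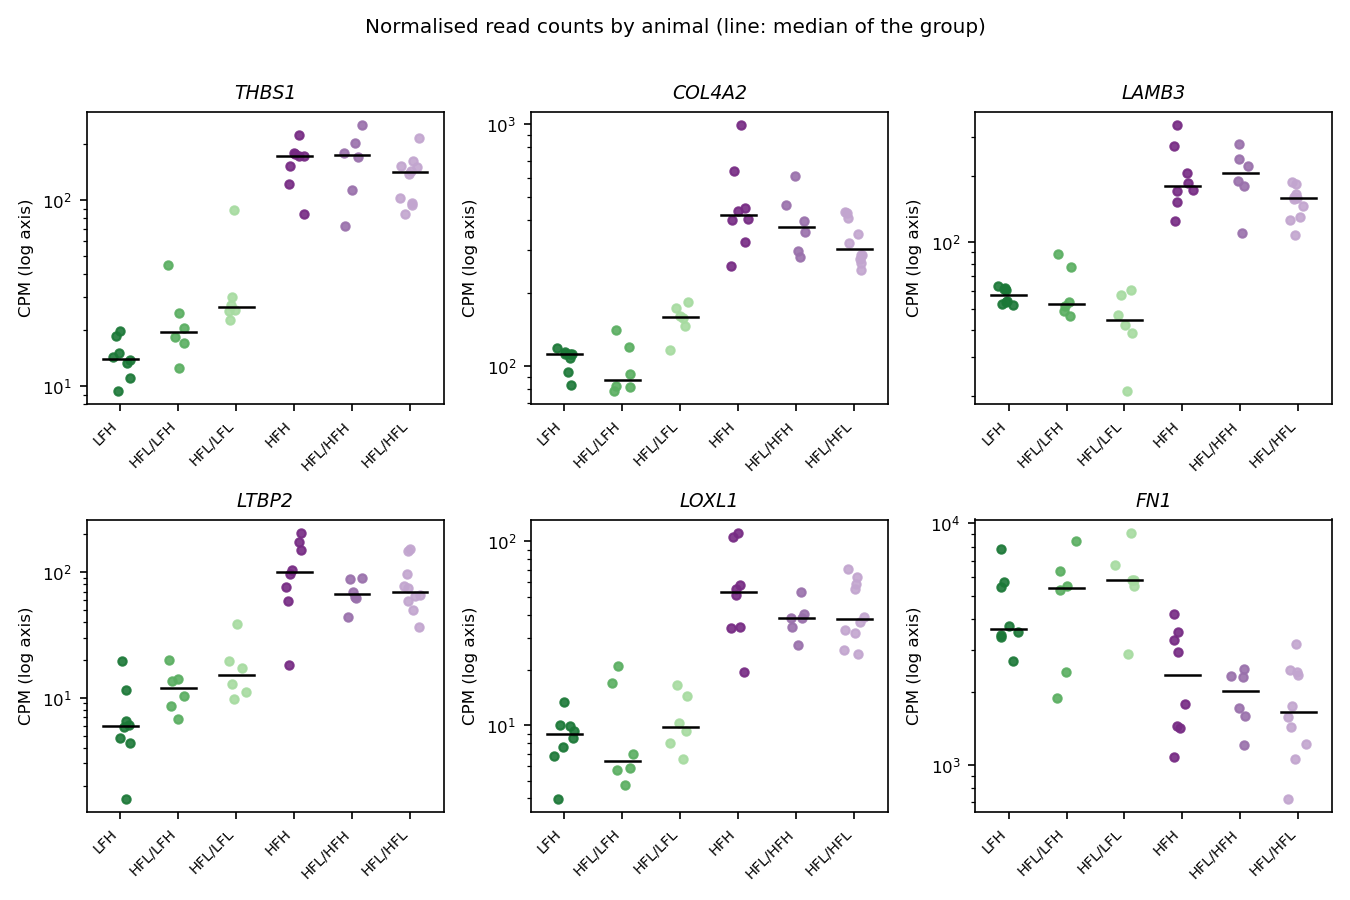
Level in each animal (points, CPM on a log axis) of 6 matrix genes in the 6 groups, low fat groups first, with the group median as a line. COL4A2 and LAMB3 separate the 20 low fat from the 24 high fat animals, THBS1 has 1 high HFL/LFL animal at 88.2 CPM, and FN1 is lower on high fat.

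Basement membrane genes formed the largest class, and all 13 were called in HFH over LFH, 10 higher and 3 lower, beside 27.7% and 21.7% of all genes. COL4A2 and LAMB3 were the only matrix genes in which every high fat animal of any group was above every low fat animal of any group, which held in either direction for 3.96% of all genes. COL4A2 codes for a chain of the common collagen IV network. COL4A2 was at 112 CPM (83.4 to 118) in LFH, 87.2 (78.5 to 140.5) in HFL/LFH and 159 (116 to 183) in HFL/LFL. COL4A2 was at 421 CPM (258 to 992) in HFH, 376 (280.4 to 609) in HFL/HFH and 304 (249.5 to 430.5) in HFL/HFL. COL4A2 had no overlap between high and low fat groups in any of the 3 comparisons. Its log2 fold changes were 2.20 ± 0.19 in HFH over LFH (adjusted p = 1.65e-12), 2.01 ± 0.22 in HFL/HFH over HFL/LFH (adjusted p = 1.44e-09) and 1.08 ± 0.20 in HFL/HFL over HFL/LFL (adjusted p = 2.93e-05). COL4A6, a chain of a collagen IV network found in few basement membranes, went down on the same feed. COL4A6 was at 8.21 CPM (6.36 to 24.8) in LFH, 7.06 (4.29 to 16.4) in HFL/LFH and 4.45 (1.62 to 11.9) in HFL/LFL. COL4A6 was at 1.92 CPM (0.727 to 5.26) in HFH, 1.68 (1.17 to 5.003) in HFL/HFH and 2.62 (0.974 to 5.94) in HFL/HFL. COL4A6 ranges did not overlap in HFH over LFH and overlapped in HFL/HFH over HFL/LFH and HFL/HFL over HFL/LFL. The log2 fold changes were -2.04 ± 0.40 in HFH over LFH (adjusted p = 5.04e-05), -1.93 ± 0.47 in HFL/HFH over HFL/LFH (adjusted p = 0.00105) and -1.05 ± 0.40 in HFL/HFL over HFL/LFL (adjusted p = 0.0341). The last call was lost without any 1 of HFL/HFL animal 29, 55, 81 or 90 or HFL/LFL animal 13 or 44 (-1.01 to -0.69, adjusted p = 0.0504 to 0.1804), and under limma voom (adjusted p = 0.101).

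Laminins are trimers of an alpha, a beta and a gamma chain, and the subunits did not move together. LAMA3 and LAMB3 are an alpha and a beta chain of epithelial basement membranes, and LAMB3 rose on high fat while LAMA3 fell. LAMB3 was at 57.3 CPM (51.9 to 63.1) in LFH, 52.3 (46.3 to 88.7) in HFL/LFH and 44.2 (21.1 to 60.5) in HFL/LFL. LAMB3 was at 180 CPM (125 to 341) in HFH, 206 (110.4 to 279.8) in HFL/HFH and 158 (108 to 188) in HFL/HFL. LAMB3 had no overlap between high and low fat groups in any of the 3 comparisons. The differences were 1.83 ± 0.19 in HFH over LFH (adjusted p = 8.41e-11), 1.74 ± 0.21 in HFL/HFH over HFL/LFH (adjusted p = 2.03e-08) and 1.78 ± 0.20 in HFL/HFL over HFL/LFL (adjusted p = 4.08e-09). LAMA3 was at 6.37 CPM (4.39 to 8.01) in LFH, 7.60 (6.31 to 9.66) in HFL/LFH and 7.03 (5.68 to 10.8) in HFL/LFL. LAMA3 was at 3.11 CPM (1.95 to 4.58) in HFH, 3.12 (2.67 to 3.92) in HFL/HFH and 3.35 (1.93 to 6.36) in HFL/HFL. LAMA3 ranges did not overlap in HFL/HFH over HFL/LFH and overlapped in HFH over LFH and HFL/HFL over HFL/LFL. LAMA3 differed by -1.01 ± 0.20 in HFH over LFH (adjusted p = 4.18e-05), -1.31 ± 0.23 in HFL/HFH over HFL/LFH (adjusted p = 1.54e-05) and -0.92 ± 0.20 in HFL/HFL over HFL/LFL (adjusted p = 0.000304). LAMC3, a gamma chain, fell with it. LAMC3 was at 5.51 CPM (4.08 to 9.46) in LFH, 5.19 (2.603 to 10.9) in HFL/LFH and 3.53 (2.67 to 6.58) in HFL/LFL. LAMC3 was at 1.06 CPM (0 to 2.88) in HFH, 1.23 (0.709 to 2.38) in HFL/HFH and 1.297 (0.348 to 4.005) in HFL/HFL. LAMC3 ranges did not overlap in HFH over LFH and HFL/HFH over HFL/LFH and overlapped in HFL/HFL over HFL/LFL. LAMC3 differed by -2.11 ± 0.47 in HFH over LFH (adjusted p = 0.000244), -2.14 ± 0.54 in HFL/HFH over HFL/LFH (adjusted p = 0.00171) and -1.45 ± 0.46 in HFL/HFL over HFL/LFL (adjusted p = 0.0113). The cholangiocyte markers tested (CLDN4, EPCAM, KRT7 and KRT19, 4 of 9 listed) were all called higher in each of the 3 comparisons, as were 13.4% of all genes, and the summed list was 112 to 394 CPM in the low fat animals and 649 to 1363 CPM in the high fat animals. The part of bile duct cells in the levels of LAMB3 was not tested.

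LAMB1 and LAMC1 are the beta and gamma chains of the widespread laminins, and LAMA4 the alpha chain of vessel and muscle laminins. LAMC1 was at 46.4 CPM (38.4 to 73.8) in LFH, 37.1 (30.2 to 49.9) in HFL/LFH and 53.3 (49.9 to 67.5) in HFL/LFL. LAMC1 was at 108 CPM (59.6 to 150.2) in HFH, 70.01 (52.5 to 124) in HFL/HFH and 68.9 (41.2 to 91.96) in HFL/HFL. LAMC1 ranges did not overlap in HFL/HFH over HFL/LFH and overlapped in HFH over LFH and HFL/HFL over HFL/LFL. It rose in both comparisons at high vitC and was not called between the low vitC groups, with 1.16 ± 0.17 in HFH over LFH (adjusted p = 2.95e-07), 1.07 ± 0.20 in HFL/HFH over HFL/LFH (adjusted p = 3.19e-05) and 0.21 ± 0.18 in HFL/HFL over HFL/LFL (adjusted p = 0.373). LAMB1 was at 28.8 CPM (25.7 to 32.4) in LFH, 28.6 (24.7 to 36.8) in HFL/LFH and 33.1 (27.9 to 39.2) in HFL/LFL. LAMB1 was at 53.6 CPM (31.01 to 115) in HFH, 38.8 (24.4 to 58.8) in HFL/HFH and 33.3 (20.7 to 47.4) in HFL/HFL. LAMB1 ranges overlapped between high and low fat groups in each comparison. LAMB1 was called in HFH over LFH alone, with 1.03 ± 0.19 in HFH over LFH (adjusted p = 1.57e-05), 0.42 ± 0.22 in HFL/HFH over HFL/LFH (adjusted p = 0.131) and 0.02 ± 0.20 in HFL/HFL over HFL/LFL (adjusted p = 0.946). LAMA4 likewise differed by 1.75 ± 0.37 in HFH over LFH (adjusted p = 0.000121), 0.56 ± 0.42 in HFL/HFH over HFL/LFH (adjusted p = 0.314) and 0.22 ± 0.37 in HFL/HFL over HFL/LFL (adjusted p = 0.680). LAMA4 was between 1.83 and 2.55 CPM in LFH and between 3.10 and 21.5 CPM in HFH, with no overlap. The 21.5 CPM was HFH animal 6, without which the difference of LAMA4 was 1.259 (adjusted p = 0.00172). LAMB2, a beta chain of vessel, muscle and kidney basement membranes, was higher in each comparison, by 0.75 ± 0.16 in HFH over LFH (adjusted p = 9.81e-05), 0.55 ± 0.18 in HFL/HFH over HFL/LFH (adjusted p = 0.0149) and 0.67 ± 0.16 in HFL/HFL over HFL/LFL (adjusted p = 0.00122). LAMB2 had 316 CPM (242 to 365) in LFH, 338 (281 to 413) in HFL/LFH and 286 (267 to 430.4) in HFL/LFL. LAMB2 had 492 CPM (332 to 793) in HFH, 491 (356 to 638) in HFL/HFH and 491 (321 to 693) in HFL/HFL. LAMB2 ranges overlapped between high and low fat groups in each comparison.

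Nidogens bridge laminin and collagen IV. NID1 was at 305 CPM (215 to 388) in LFH, 301 (234 to 324) in HFL/LFH and 488 (273 to 783) in HFL/LFL. NID1 was at 425 CPM (284 to 538) in HFH, 379.6 (326 to 553) in HFL/HFH and 411 (281 to 553) in HFL/HFL. NID1 ranges did not overlap in HFL/HFH over HFL/LFH and overlapped in HFH over LFH and HFL/HFL over HFL/LFL. NID1 differed by 0.48 ± 0.16 in HFH over LFH (adjusted p = 0.0111), 0.48 ± 0.18 in HFL/HFH over HFL/LFH (adjusted p = 0.0360) and -0.31 ± 0.16 in HFL/HFL over HFL/LFL (adjusted p = 0.136). The call in HFL/HFH over HFL/LFH was lost without any 1 of HFL/HFH animal 15 or 20 or HFL/LFH animal 4, 32 or 58 (0.38 to 0.49, adjusted p = 0.0521 to 0.115). The low vitC animals on low fat feed, HFL/LFL, had the highest median of NID1 among the 6 groups. NID2 was at 5.03 CPM (3.87 to 6.04) in LFH, 3.69 (2.298 to 9.28) in HFL/LFH and 4.19 (1.76 to 7.70) in HFL/LFL. NID2 was at 10.8 CPM (2.84 to 21.7) in HFH, 7.47 (3.29 to 14.1) in HFL/HFH and 4.32 (1.63 to 9.72) in HFL/HFL. NID2 ranges overlapped between high and low fat groups in each comparison. NID2 was called in HFH over LFH alone, with 1.08 ± 0.35 in HFH over LFH (adjusted p = 0.00934), 0.86 ± 0.40 in HFL/HFH over HFL/LFH (adjusted p = 0.0925) and 0.15 ± 0.36 in HFL/HFL over HFL/LFL (adjusted p = 0.774). The AGRN row, shared with ISG15, was at 162 CPM (118 to 218) in LFH, 172 (140 to 312) in HFL/LFH and 182 (144 to 277) in HFL/LFL. AGRN was at 341 CPM (265 to 598) in HFH, 397 (328 to 527) in HFL/HFH and 368 (280.3 to 609) in HFL/HFL. AGRN had no overlap between high and low fat groups in any of the 3 comparisons. It differed by 1.21 ± 0.19 in HFH over LFH (adjusted p = 6.57e-07), 1.10 ± 0.21 in HFL/HFH over HFL/LFH (adjusted p = 6.80e-05) and 1.03 ± 0.20 in HFL/HFL over HFL/LFL (adjusted p = 5.69e-05), and neither gene can be credited with this.

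**Figure D3:**
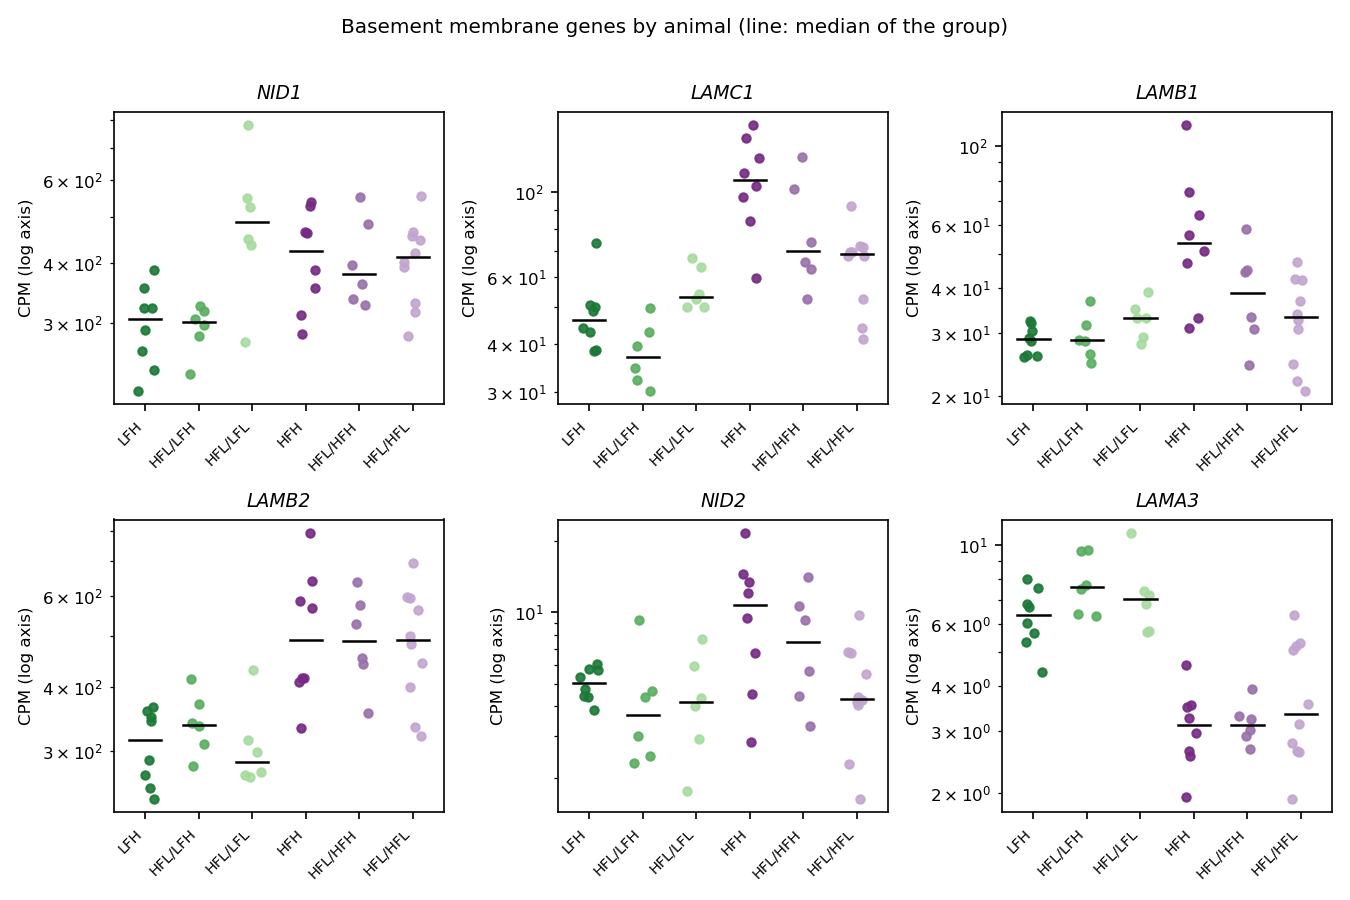
Level in each animal (points, CPM on a log axis) of 6 basement membrane genes in the 6 groups, with the group median as a line. NID1 is highest in HFL/LFL, at a median of 488 CPM, LAMB1 and NID2 have their highest medians in HFH, and LAMA3 has lower medians in the high fat groups than in the low fat groups.

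Of the fibrillar collagens only COL5A2 and COL2A1 were present. COL5A2, a chain that starts and limits the width of collagen I fibrils, was higher on high fat throughout. COL5A2 was at 43.3 CPM (34.9 to 66.1) in LFH, 37.6 (27.5 to 58.9) in HFL/LFH and 39.3 (31.4 to 52.1) in HFL/LFL. COL5A2 was at 96.8 CPM (52.4 to 205) in HFH, 81.8 (66.01 to 113) in HFL/HFH and 78.8 (60.8 to 138) in HFL/HFL. COL5A2 ranges did not overlap in HFL/HFH over HFL/LFH and HFL/HFL over HFL/LFL and overlapped in HFH over LFH. The differences were 1.24 ± 0.21 in HFH over LFH (adjusted p = 2.81e-06), 1.12 ± 0.24 in HFL/HFH over HFL/LFH (adjusted p = 0.000220) and 1.13 ± 0.22 in HFL/HFL over HFL/LFL (adjusted p = 7.11e-05). COL2A1, the cartilage collagen, was at most 1.55 CPM in any animal and was called nowhere. COL6A2, a chain of the beaded collagen VI around cells, was at 99.9 CPM (49.3 to 128) in LFH, 78.4 (65.05 to 353) in HFL/LFH and 107 (71.9 to 244) in HFL/LFL. COL6A2 was at 296 CPM (104 to 721) in HFH, 254 (189.8 to 346) in HFL/HFH and 263 (174 to 566) in HFL/HFL. COL6A2 ranges overlapped between high and low fat groups in each comparison. It differed by 1.90 ± 0.36 in HFH over LFH (adjusted p = 2.07e-05), 0.76 ± 0.40 in HFL/HFH over HFL/LFH (adjusted p = 0.136) and 1.29 ± 0.37 in HFL/HFL over HFL/LFL (adjusted p = 0.00548). COL8A2, a network collagen of vessel walls, was at 1.81 CPM (1.204 to 2.96) in LFH, 1.901 (1.15 to 3.56) in HFL/LFH and 2.37 (0.721 to 3.81) in HFL/LFL. COL8A2 was at 9.74 CPM (2.19 to 32.9) in HFH, 3.13 (2.62 to 9.38) in HFL/HFH and 5.01 (2.06 to 15.1) in HFL/HFL. COL8A2 ranges overlapped between high and low fat groups in each comparison. COL8A2 differed by 2.62 ± 0.44 in HFH over LFH (adjusted p = 3.16e-06), 1.257 ± 0.49 in HFL/HFH over HFL/LFH (adjusted p = 0.0399) and 1.48 ± 0.45 in HFL/HFL over HFL/LFL (adjusted p = 0.00862). The middle call was lost without any 1 of HFL/HFH animal 15 or 30 or HFL/LFH animal 3, 4, 33, 43 or 58 (0.96 to 1.27, adjusted p = 0.0521 to 0.134), and under limma voom (adjusted p = 0.238).

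Among the remaining collagens, COL22A1, COL26A1 and COL9A1 were near the limit of counting. COL22A1 had 38 counts in 5 of 8 HFH animals and 2 counts in 1 of 8 LFH animals, a ratio of 12.2 with a 95% exact interval of 3.15 to 104.4 that covers counting error only. COL22A1 was called in HFH over LFH (adjusted p = 0.0240) and the call was lost without HFH animal 6 (0.0693) and under limma voom (adjusted p = 0.200). COL22A1 had 0 CPM (0 to 0.0994) in LFH, 0 (0 to 0.3396) in HFL/LFH and 0.109 (0 to 0.417) in HFL/LFL. COL22A1 had 0.105 CPM (0 to 0.376) in HFH, 0.242 (0.1399 to 0.378) in HFL/HFH and 0.269 (0 to 1.92) in HFL/HFL. COL22A1 ranges overlapped between high and low fat groups in each comparison. COL26A1 was the sole collagen besides COL4A6 called lower in HFH over LFH, with -2.46 ± 0.88 (adjusted p = 0.0182). COL26A1 had 0.847 CPM (0.158 to 2.23) in LFH, 0.325 (0 to 0.753) in HFL/LFH and 0.07601 (0 to 0.203) in HFL/LFL. COL26A1 had 0.145 CPM (0 to 0.363) in HFH, 0.1895 (0 to 0.447) in HFL/HFH and 0.128 (0 to 0.723) in HFL/HFL. COL26A1 ranges overlapped between high and low fat groups in each comparison. COL9A1 was at most 0.876 CPM. COL6A5, a collagen VI chain of few tissues, had 0.890 CPM (0 to 3.05) in LFH, 1.33 (0.147 to 53.4) in HFL/LFH and 1.52 (0.232 to 3.54) in HFL/LFL. COL6A5 had 3.67 CPM (0.727 to 11.2) in HFH, 1.31 (0.824 to 28.5) in HFL/HFH and 3.101 (0.2503 to 15.8) in HFL/HFL. COL6A5 ranges overlapped between high and low fat groups in each comparison. 1 animal each set the highest values, HFL/LFH animal 32 and HFL/HFH animal 84. HFL/LFH animal 32 also had the highest sum of the mesothelium and capsule list among all 44 animals, 56.7 CPM, while HFL/HFH animal 84 had 1.54 CPM. The part of capsule tissue in these values was not tested.

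Elastic fibre and microfibril genes split. LTBP2, a microfibril protein related to the latent TGF-beta binding proteins, had the largest fold change of the 45 in HFH over LFH. LTBP2 was at 5.93 CPM (1.56 to 19.6) in LFH, 12.01 (6.78 to 19.9) in HFL/LFH and 15.04 (9.71 to 38.7) in HFL/LFL. LTBP2 was at 100.2 CPM (18.2 to 206) in HFH, 66.9 (43.9 to 89.1) in HFL/HFH and 69.96 (36.6 to 153) in HFL/HFL. LTBP2 ranges did not overlap in HFL/HFH over HFL/LFH and overlapped in HFH over LFH and HFL/HFL over HFL/LFL. It differed by 3.87 ± 0.41 in HFH over LFH (adjusted p = 2.04e-10), 2.51 ± 0.45 in HFL/HFH over HFL/LFH (adjusted p = 1.69e-05) and 2.18 ± 0.41 in HFL/HFL over HFL/LFL (adjusted p = 5.14e-05). FBLN5, which is needed to assemble elastin, was at 18.6 CPM (5.83 to 27.98) in LFH, 14.5 (8.803 to 31.7) in HFL/LFH and 20.8 (13.4 to 56.7) in HFL/LFL. FBLN5 was at 72.9 CPM (23.98 to 159) in HFH, 39.95 (23.4 to 85.8) in HFL/HFH and 42.2 (17.8 to 93.4) in HFL/HFL. FBLN5 ranges overlapped between high and low fat groups in each comparison. FBLN5 differed by 2.15 ± 0.38 in HFH over LFH (adjusted p = 7.83e-06), 1.43 ± 0.43 in HFL/HFH over HFL/LFH (adjusted p = 0.00760) and 0.94 ± 0.39 in HFL/HFL over HFL/LFL (adjusted p = 0.0518). MFAP2, a microfibril protein, was at 28.1 CPM (15.8 to 39.3) in LFH, 26.3 (15.01 to 49) in HFL/LFH and 24.6 (17.9 to 56.8) in HFL/LFL. MFAP2 was at 74.6 CPM (38.4 to 152) in HFH, 62.2 (40.7 to 71.7) in HFL/HFH and 63.2 (33.9 to 125) in HFL/HFL. MFAP2 ranges overlapped between high and low fat groups in each comparison. MFAP2 differed by 1.60 ± 0.29 in HFH over LFH (adjusted p = 1.38e-05), 0.98 ± 0.33 in HFL/HFH over HFL/LFH (adjusted p = 0.0180) and 1.24 ± 0.31 in HFL/HFL over HFL/LFL (adjusted p = 0.00148). The middle call was lost without any 1 of HFL/LFH animal 4 or 32 (0.85, adjusted p = 0.0533 to 0.0553). EFEMP2, which brings lysyl oxidase to elastin, was at 62.8 CPM (41.7 to 95.96) in LFH, 55.6 (45.97 to 129) in HFL/LFH and 64.8 (50.2 to 136) in HFL/LFL. EFEMP2 was at 158 CPM (90.3 to 318) in HFH, 138 (114 to 197) in HFL/HFH and 159 (92.2 to 305) in HFL/HFL. EFEMP2 ranges overlapped between high and low fat groups in each comparison. EFEMP2 differed by 1.46 ± 0.27 in HFH over LFH (adjusted p = 1.64e-05), 1.12 ± 0.31 in HFL/HFH over HFL/LFH (adjusted p = 0.00360) and 1.22 ± 0.28 in HFL/HFL over HFL/LFL (adjusted p = 0.000753).

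FBN1, the main subunit of the microfibrils on which these proteins sit, fell on high fat feed. FBN1 was at 326 CPM (111 to 524) in LFH, 318 (94.3 to 753) in HFL/LFH and 263 (109 to 454) in HFL/LFL. FBN1 was at 172 CPM (124 to 218) in HFH, 134 (94.5 to 176) in HFL/HFH and 137 (76.2 to 281) in HFL/HFL. FBN1 ranges overlapped between high and low fat groups in each comparison. FBN1 differed by -0.94 ± 0.28 in HFH over LFH (adjusted p = 0.00526), -1.37 ± 0.33 in HFL/HFH over HFL/LFH (adjusted p = 0.000973) and -0.87 ± 0.28 in HFL/HFL over HFL/LFL (adjusted p = 0.0138), the last call being lost without HFL/LFL animal 49 (-0.65, adjusted p = 0.0857). Its high fat values lay in a narrower band than the low fat values. EMILIN2, a glycoprotein of elastic fibres, was at 18.2 CPM (11.7 to 32.7) in LFH, 15.02 (11.1 to 19.6) in HFL/LFH and 21.7 (17.8 to 37.7) in HFL/LFL. EMILIN2 was at 29.9 CPM (23.7 to 39.7) in HFH, 37.1 (22.5 to 50.4) in HFL/HFH and 39.1 (32.5 to 62.05) in HFL/HFL. EMILIN2 ranges did not overlap in HFL/HFH over HFL/LFH and overlapped in HFH over LFH and HFL/HFL over HFL/LFL. EMILIN2 differed by 0.59 ± 0.18 in HFH over LFH (adjusted p = 0.00669), 1.30 ± 0.21 in HFL/HFH over HFL/LFH (adjusted p = 4.77e-06) and 0.80 ± 0.19 in HFL/HFL over HFL/LFL (adjusted p = 0.00109). FBLN1, a fibulin of basement membranes and elastic fibres, was called once, in HFL/HFH over HFL/LFH, with 0.23 ± 0.16 in HFH over LFH (adjusted p = 0.255), 0.54 ± 0.19 in HFL/HFH over HFL/LFH (adjusted p = 0.0213) and 0.11 ± 0.17 in HFL/HFL over HFL/LFL (adjusted p = 0.633). That call was lost without any 1 of HFL/LFH animal 33 or 43 (0.45 to 0.46, adjusted p = 0.0586 to 0.0635). FBLN1 was at 413 CPM (265 to 614) in LFH, 313 (189 to 371) in HFL/LFH and 471 (302 to 602) in HFL/LFL. FBLN1 was at 438 CPM (333 to 630) in HFH, 449 (328 to 486) in HFL/HFH and 469 (389.5 to 640.5) in HFL/HFL. FBLN1 ranges overlapped between high and low fat groups in each comparison. EMILIN1, FBLN7, MFAP1, MFAP3L and MFAP5.1 were called in none of the 3. EMILIN1 ran from 221 to 453 CPM over all animals, and MFAP5.1 stayed at or under 1.49 CPM.

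All 3 crosslinking genes present, LOXL1, LOXL2 and LOXL4, were higher on high fat in each comparison, beside 13.4% of all genes. These lysyl oxidase-like enzymes oxidise lysines of collagen and elastin so that the fibres crosslink. LOXL1, which acts on elastin, was at 8.92 CPM (3.97 to 13.4) in LFH, 6.41 (4.71 to 21) in HFL/LFH and 9.79 (6.54 to 16.6) in HFL/LFL. LOXL1 was at 53.04 CPM (19.5 to 111) in HFH, 38.1 (27.2 to 53.2) in HFL/HFH and 37.7 (24.4 to 70.7) in HFL/HFL. LOXL1 had no overlap between high and low fat groups in any of the 3 comparisons. LOXL1 differed by 2.75 ± 0.32 in HFH over LFH (adjusted p = 2.56e-09), 1.92 ± 0.36 in HFL/HFH over HFL/LFH (adjusted p = 4.51e-05) and 2.02 ± 0.34 in HFL/HFL over HFL/LFL (adjusted p = 9.39e-06). LOXL4 was at 20.2 CPM (12.3 to 26.97) in LFH, 22.96 (19.4 to 29.6) in HFL/LFH and 33.3 (22.1 to 50.7) in HFL/LFL. LOXL4 was at 40.3 CPM (28.04 to 53.5) in HFH, 45.7 (26.98 to 48.3) in HFL/HFH and 58.6 (39.9 to 77.6) in HFL/HFL. LOXL4 ranges did not overlap in HFH over LFH and overlapped in HFL/HFH over HFL/LFH and HFL/HFL over HFL/LFL. LOXL4 differed by 1.03 ± 0.17 in HFH over LFH (adjusted p = 4.05e-06), 0.77 ± 0.20 in HFL/HFH over HFL/LFH (adjusted p = 0.00208) and 0.79 ± 0.18 in HFL/HFL over HFL/LFL (adjusted p = 0.000701). LOXL2, which acts on collagen IV, was at 23.2 CPM (16.3 to 32.5) in LFH, 17.9 (15.3 to 29.7) in HFL/LFH and 22.1 (20.6 to 29.1) in HFL/LFL. LOXL2 was at 34.6 CPM (18.99 to 74.8) in HFH, 35.2 (20.3 to 64.9) in HFL/HFH and 35.4 (28.7 to 50.9) in HFL/HFL. LOXL2 ranges overlapped between high and low fat groups in each comparison. LOXL2 differed by 0.62 ± 0.21 in HFH over LFH (adjusted p = 0.0129), 0.95 ± 0.24 in HFL/HFH over HFL/LFH (adjusted p = 0.00171) and 0.63 ± 0.22 in HFL/HFL over HFL/LFL (adjusted p = 0.0211). The first call was lost without HFH animal 6 (0.36, adjusted p = 0.108) and with only HFH and LFH in the fit (0.60, adjusted p = 0.0509).

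Small leucine-rich proteoglycans bind collagen fibrils and set their spacing. LUM was at 194 CPM (136 to 295) in LFH, 164 (123 to 234) in HFL/LFH and 191 (174 to 304) in HFL/LFL. LUM was at 491 CPM (244 to 826) in HFH, 330.2 (235 to 483) in HFL/HFH and 362 (190.5 to 609.7) in HFL/HFL. LUM ranges did not overlap in HFL/HFH over HFL/LFH and overlapped in HFH over LFH and HFL/HFL over HFL/LFL. It rose by 1.31 ± 0.22 in HFH over LFH (adjusted p = 4.04e-06), 0.99 ± 0.25 in HFL/HFH over HFL/LFH (adjusted p = 0.00181) and 0.79 ± 0.23 in HFL/HFL over HFL/LFL (adjusted p = 0.00617). FMOD was at 3.98 CPM (0 to 8.77) in LFH, 3.502 (0.785 to 16.4) in HFL/LFH and 5.005 (1.11 to 12.1) in HFL/LFL. FMOD was at 15.7 CPM (2.19 to 48.1) in HFH, 10.9 (8.24 to 18.97) in HFL/HFH and 14.6 (4.16 to 63.6) in HFL/HFL. FMOD ranges overlapped between high and low fat groups in each comparison. FMOD was called in HFH over LFH and HFL/HFL over HFL/LFL, with 2.37 ± 0.61 in HFH over LFH (adjusted p = 0.00129), 1.11 ± 0.68 in HFL/HFH over HFL/LFH (adjusted p = 0.209) and 1.72 ± 0.64 in HFL/HFL over HFL/LFL (adjusted p = 0.0318). The latter call was lost without any 1 of HFL/HFL animal 52 or HFL/LFL animal 13, 49 or 68 (1.27 to 1.61, adjusted p = 0.0682 to 0.103), and under limma voom (adjusted p = 0.0553). ASPN was at 71.99 CPM (47.1 to 88.3) in LFH, 63.9 (57.01 to 80.1) in HFL/LFH and 70.02 (46.1 to 117) in HFL/LFL. ASPN was at 116 CPM (61.9 to 210.5) in HFH, 71.1 (56.4 to 123) in HFL/HFH and 83.02 (57.1 to 150.4) in HFL/HFL. ASPN ranges overlapped between high and low fat groups in each comparison. ASPN was called in HFH over LFH alone, with 0.84 ± 0.22 in HFH over LFH (adjusted p = 0.00128), 0.24 ± 0.25 in HFL/HFH over HFL/LFH (adjusted p = 0.491) and 0.39 ± 0.23 in HFL/HFL over HFL/LFL (adjusted p = 0.173). BGN was called once, and lower. BGN was at 162 CPM (124 to 201) in LFH, 127 (94.01 to 193) in HFL/LFH and 101 (65.8 to 149) in HFL/LFL. BGN was at 101 CPM (39.2 to 178) in HFH, 70.6 (47.4 to 109) in HFL/HFH and 72.2 (48.7 to 146) in HFL/HFL. BGN ranges overlapped between high and low fat groups in each comparison. BGN differed by -0.56 ± 0.24 in HFH over LFH (adjusted p = 0.0536), -0.82 ± 0.28 in HFL/HFH over HFL/LFH (adjusted p = 0.0191) and -0.26 ± 0.25 in HFL/HFL over HFL/LFL (adjusted p = 0.430), and the call was lost without any 1 of HFL/HFH animal 19 or 22 or HFL/LFH animal 33 (-0.74 to -0.68, adjusted p = 0.0503 to 0.0580).

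Genes that make and receive the matrix were read from 2 further lists. Of 27 genes for collagen hydroxylation, folding, secretion and trimming, 12 were tested, and 4 were called higher and 2 lower in HFH over LFH, 6 of 12 in all, beside 49.3% of all genes. In each of the other 2 feed comparisons 5 were called higher and 1 lower, beside 35.9% and 37.8% of all genes. The endoplasmic reticulum isomerases FKBP14 and FKBP10 and the collagen chaperone SERPINH1 rose by 1.58 ± 0.21 (adjusted p = 4.24e-08), 1.61 ± 0.23 (adjusted p = 1.85e-07) and 1.37 ± 0.22 (adjusted p = 1.07e-06), and the collagen prolyl hydroxylase P3H2 changed by -0.97 ± 0.19 (adjusted p = 2.95e-05). FKBP14 ran from 31.1 to 62.2 CPM in LFH and 61.9 to 263 CPM in HFH, FKBP10 from 36.8 to 71.2 CPM in LFH and 95.1 to 302 CPM in HFH, SERPINH1 from 59.7 to 137 CPM in LFH and 117 to 429 CPM in HFH and P3H2 from 10.6 to 23.02 CPM in LFH and 6.36 to 10.1 CPM in HFH. Of 22 matrix receptors, 11 were tested and 5 were called in HFH over LFH, all higher, which is 45.5% beside 49.3% of all genes. In HFL/HFH over HFL/LFH 2 receptors were called higher and 1 lower (27.3% beside 35.9% of all genes), and in HFL/HFL over HFL/LFL 3 higher and 3 lower (54.5% beside 37.8%). The collagen receptor DDR1 rose by 3.60 ± 0.27 (adjusted p = 1.66e-14) and ran from 5.12 to 15.5 CPM in LFH and 86.8 to 191 CPM in HFH. The integrin chains ITGB6, ITGB5 and ITGB8 rose by 3.19 ± 0.57 (adjusted p = 1.12e-05), 0.62 ± 0.11 (adjusted p = 1.32e-05) and 2.15 ± 0.53 (adjusted p = 0.000895). ITGB6 ran from 0 to 0.637 CPM in LFH and 0.719 to 6.18 CPM in HFH, ITGB5 from 117 to 180.1 CPM in LFH and 176 to 271 CPM in HFH and ITGB8 from 0.273 to 1.24 CPM in LFH and 1.15 to 5.39 CPM in HFH.

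Markers of cells that could supply these transcripts were read from further lists, to be set beside the 49.3%, 35.9% and 37.8% of all genes called in the 3 feed comparisons. Of 15 stellate cell and myofibroblast markers, 10 were tested in HFH over LFH, where RGS5, PDGFRB and PDGFRA were called higher, LRAT and THY1 lower, and ACTA2 was not called with 0.45 ± 0.37 (adjusted p = 0.330). In HFL/HFH over HFL/LFH 3 of the 10 were higher and 1 lower, and in HFL/HFL over HFL/LFL 2 were higher and 2 lower. The summed list was 513 to 906 CPM in LFH and 845 to 2175 CPM in HFH, the top value being HFH animal 6. Its median was 747 CPM in LFH and 1290 CPM in HFH, and RGS5 alone had medians of 131 and 690 CPM. The rise of the sum was thus mostly that of 1 gene. GFAP was at 0 in every animal of the 5 groups other than HFH. In HFH over LFH the endothelial list had 1 of 5 tested genes higher and 1 lower, the macrophage list 2 of 6 higher and 2 lower, the T cell list 1 of 5 higher and 1 lower, and the B and plasma cell list 1 of 6 lower. The endothelial list had 4 of 5 called lower in HFL/HFL over HFL/LFL and 1 of 5 lower in HFL/HFH over HFL/LFH, and its sum was 455 to 676 CPM in HFL/HFL and 711 to 889 CPM in HFL/LFL. By edgeR the mesothelium and capsule list had 0 of 3 called, and 0 at an unadjusted p under 0.05, in HFH over LFH and in HFL/HFL over HFL/LFL. In HFH over LFH the 3 lay at 1.05 to 2.43 on the log2 scale, and HFH animal 6 had the highest sum of its group, 33.02 CPM. In HFL/HFH over HFL/LFH 2 of the 3 were called lower, where the sum was 0.372 to 2.21 CPM in HFL/HFH and 0.641 to 56.7 CPM in HFL/LFH, the top value being HFL/LFH animal 32. The part of cell numbers in the matrix gene levels was not tested.

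Low vitC against high vitC during the low fat period, HFL/LFL over HFL/LFH, called 0 of 45 matrix genes by edgeR, against 0.219% of all genes, and 9 had an unadjusted p under 0.05 (11.0% of all genes). DESeq2 called 1 and limma voom 2 of the 45, beside 1.03% and 0.516% of all genes. NID1 came closest, with 0.78 ± 0.18 (adjusted p = 0.0538), and was called by DESeq2 (adjusted p = 0.00899), by limma voom (0.0237), and by edgeR without any 1 of HFL/LFH animal 43 or HFL/LFL animal 17 or 44 (0.77 to 0.90, adjusted p = 0.00868 to 0.0489). The next 4 by p were EMILIN2 with 0.71 ± 0.21 (adjusted p = 0.135), FBLN1 with 0.62 ± 0.19 (adjusted p = 0.146), COL4A2 with 0.65 ± 0.21 (adjusted p = 0.175), which limma voom called (0.0341), and LAMC1 with 0.56 ± 0.20 (adjusted p = 0.225). LAMC1 was the sole matrix gene whose values did not overlap between these groups, which held for 0.503% of all genes. In the same comparison 5 of 10 stellate cell and myofibroblast markers, 3 of 5 endothelial markers and 3 of 6 macrophage markers had an unadjusted p under 0.05 and none was called, with median log2 fold changes over the tested markers of 0.59, 0.29 and 0.56. Their part in the NID1, COL4A2 and LAMC1 values was not tested.

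Under continued high fat feed, HFL/HFL over HFL/HFH, edgeR called 0 of 45 (0.0129% of all genes), DESeq2 and limma voom 0, and 3 had an unadjusted p under 0.05 (3.37% of all genes). Among the smallest p were those of LOXL4 with 0.55 ± 0.18, LAMB3 with -0.42 ± 0.18, NID2 with -0.67 ± 0.35 and LAMC1 with -0.30 ± 0.17, all with an adjusted p of 0.9997. With 1 animal left out, NID2 ran from -0.84 to -0.43 and LAMC1 from -0.40 to -0.14. The low vitC group against the animals that had high vitC for all 32 weeks, HFL/HFL over HFH, called 2, LAMC1 with -0.74 ± 0.16 (adjusted p = 0.0280) and LAMB1 with -0.82 ± 0.18 (adjusted p = 0.0281), both lower, against 0.271% of all genes. Not called were LOXL4 with 0.57 ± 0.16 (adjusted p = 0.0903) and NID2 with -1.11 ± 0.33 (adjusted p = 0.0972). The LAMC1 call was lost without any 1 of HFH animal 1, 6, 14 or 61 or HFL/HFL animal 12, 81 or 93 (-0.73 to -0.66, adjusted p = 0.0510 to 0.118), the LAMB1 call without any 1 of HFH animal 1, 6, 14 or 61 or HFL/HFL animal 12, 81 or 93 (-0.83 to -0.61, adjusted p = 0.0510 to 0.131), and both with only these 18 animals in the fit. DESeq2 and limma voom called 5 and 6 matrix genes, beside 1.90% and 7.19% of all genes, with LOXL4 (adjusted p = 0.0409 and 0.0343) and NID2 (0.0393 and 0.0236) among them. By edgeR, NID2 gained a call without any 1 of HFH animal 9 or 88 or HFL/HFL animal 29 (-1.27 to -1.22, adjusted p = 0.0376 to 0.0438) and LOXL4 without HFH animal 88 (0.65, adjusted p = 0.0400). HFH and HFL/HFL differ in the first 16 weeks as well as the last, so the period cannot be told apart.

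**Figure D4:**
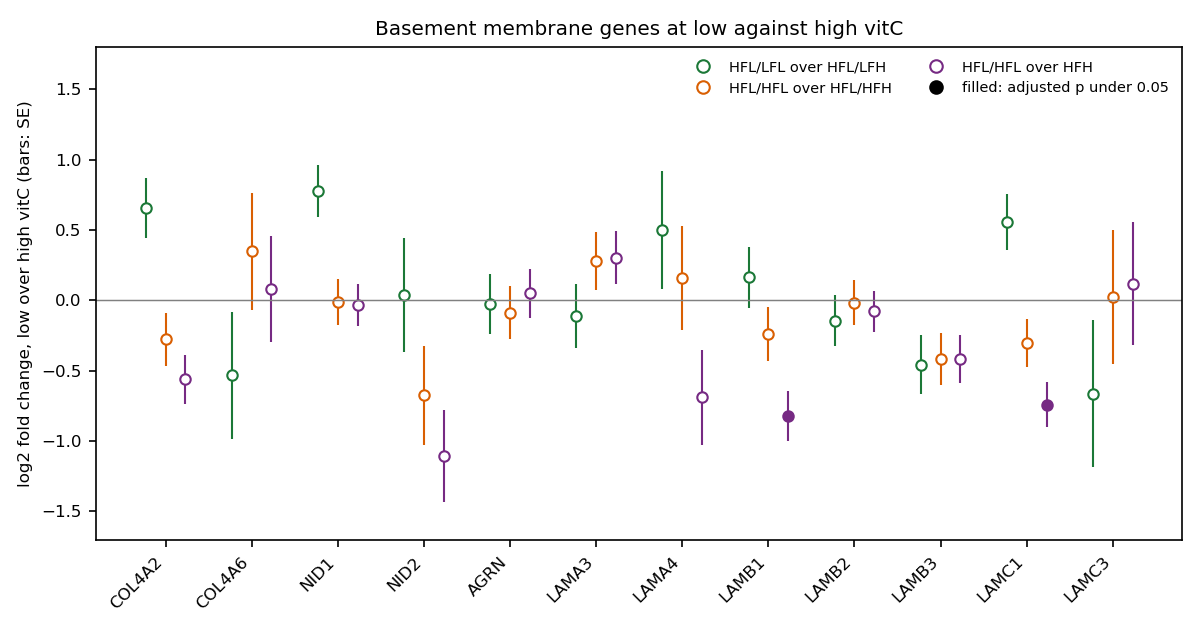
Log2 fold change (y axis, low over high vitC, bars are the SE) of 12 basement membrane genes in 3 comparisons; filled points have an adjusted p under 0.05. LAMB1 and LAMC1 in HFL/HFL over HFH are the filled points, and NID1, COL4A2 and LAMC1 lie above 0 in HFL/LFL over HFL/LFH, at 0.78, 0.65 and 0.56.

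Whether the difference between vitC levels itself differed between the feeds was tested as an interaction, (HFL/HFL over HFL/HFH) minus (HFL/LFL over HFL/LFH). It called 0 of 45 and 0% of all genes by edgeR, with 5 of 45 at an unadjusted p under 0.05 (8.23% of all genes), and 0 by DESeq2 and limma voom. They included LAMC1 with -0.86 ± 0.26 (adjusted p = 0.303), COL4A2 with -0.93 ± 0.28 (adjusted p = 0.303), NID1 with -0.79 ± 0.25 (adjusted p = 0.326) and THBS1 with -0.98 ± 0.40 (adjusted p = 0.489), and all 5 were below 0. With 1 animal left out, the THBS1 interaction ran from -1.27 to -0.50. LAMC1, COL4A2 and NID1 were called between the high vitC groups in HFL/HFH over HFL/LFH, and the interaction test did not call a difference from the low vitC groups.

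After the change to low fat feed, levels were set against LFH, which had never received high fat feed and had high vitC throughout. HFL/LFL animals had low vitC throughout, and HFL/LFH animals had low vitC in the first period. Each group thus differs from LFH in vitC as well as in past high fat feed. The part of vitC and that of past high fat feed cannot be told apart against LFH. These comparisons share the LFH animals with each other and with HFH over LFH. HFL/LFH over LFH called 0 of 45 by edgeR (0.361% of all genes) with 3 at an unadjusted p under 0.05 (10.4% of all genes), and DESeq2 called 1, COL6A5 (0.826% of all genes). The 5 smallest p were COL6A5 with 3.45 ± 0.99 (adjusted p = 0.125), FBLN1 with -0.46 ± 0.18 (adjusted p = 0.315), THBS1 with 0.67 ± 0.28 (adjusted p = 0.371), EMILIN2 with -0.40 ± 0.20 (adjusted p = 0.482) and COL6A2 with 0.70 ± 0.37 (adjusted p = 0.527). The COL6A5 value fell from 3.45 to 1.93 without HFL/LFH animal 32. With 1 animal left out, the smallest differences were 0.27 for COL6A2, 0.37 for THBS1, -0.26 for EMILIN2 and -0.35 for FBLN1. HFL/LFL over LFH called 5, against 7.91% of all genes (4.43% higher and 3.48% lower). THBS1, NID1, LOXL4 and LTBP2 were higher, by 1.34 ± 0.28 (adjusted p = 0.00225), 0.75 ± 0.17 (adjusted p = 0.00496), 0.82 ± 0.19 (adjusted p = 0.00496) and 1.262 ± 0.40 (adjusted p = 0.0429), and COL26A1 was lower, with -3.32 ± 1.06 (adjusted p = 0.0433). The THBS1 groups did not overlap, which held for 1.39% of all genes. Without HFL/LFL animal 17 the THBS1 difference was 0.87 and was still called. The LTBP2 call was lost without any 1 of HFL/LFL animal 17, 44 or 49 or LFH animal 5, 25, 46, 64, 79 or 92 (0.89 to 1.28, adjusted p = 0.0529 to 0.202), and with no filter (0.0526), with only the groups compared in the fit (0.1105) and under limma voom (adjusted p = 0.134). The COL26A1 call was lost without any 1 of HFL/LFL animal 44, 49, 53 or 68 or LFH animal 27, 56, 64, 79 or 92 (-3.76 to -3.00, adjusted p = 0.0503 to 0.0953), and with no filter (0.0749), with only the groups compared (0.0503) and under limma voom (adjusted p = 0.0574). COL26A1 rested on 0 to 5 counts per HFL/LFL animal. Whether HFL/LFL and HFL/LFH differ in these genes is the HFL/LFL over HFL/LFH comparison, which called none of the 5 (0.376 for THBS1, 0.0538 for NID1, 0.253 for LOXL4, 0.712 for LTBP2 and 0.593 for COL26A1 as adjusted p). In the same HFL/LFL over LFH comparison 2 of 4 cholangiocyte, 2 of 6 macrophage, 2 of 6 B and plasma cell and 1 of 10 stellate cell and myofibroblast markers were called higher, while HFL/LFH over LFH called 1 of 6 macrophage markers higher and 1 of 10 stellate cell and myofibroblast markers lower. The part of these cells was not tested.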

How the data were processed

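RNA of 44 livers was analysed. Per the labels and the methods of the study, reads were trimmed (Trimmomatic 0.38.0), mapped with HISAT2 2.1.0 to Ensembl's guinea pig assembly and quantified (StringTie 2.1.1), and symbols are those of human orthologues from BioMart. The counts the authors deposited are whole numbers for each symbol and are not normalized. A second deposited table holds the authors' variance-stabilized values (DESeq2), which are log2 values. The step from StringTie output to counts is not given in the sources used here. The variance-stabilized table chose the genes and served to look for outlying animals, and all tests used the counts. Groups came from the labels, and each animal belongs to 1 group, so no paired analysis was possible.

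The main test was the two-sided quasi-likelihood F test of edgeR 4.0.16 under R 4.3.3, after TMM normalization, in 1 fit to all animals and the 7750 symbols that reached 200 counts over all animals. P-values were adjusted by Benjamini-Hochberg within each of 9 comparisons, with 0.05 as the threshold. CPM used effective library sizes, by which the floor of 3 counts comes to between 0.0626 and 0.170 CPM (counting error alone). Alternatives were RLE normalization, no filter, filterByExpr, only the groups compared in the fit, DESeq2 1.42.0, limma 3.58.1 voom with quality weights, and leaving out each animal in turn. The tests were checked on simulated data.

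The further lists and the rule for which of the 45 genes to name were chosen with earlier results of these data known. Named genes were, in each class, the 4 with the smallest p in HFH over LFH, a short list of well-known matrix genes, in the other comparisons the 5 with the smallest p, and every gene lower on high fat, 35 in all, and 1 more is in the counts over the 45 but is not reported here. Of the 45 genes, 44 had a RefSeq symbol (assembly mCavPor4.1). No sequences or coordinates are given, because the reference table used is of a different assembly and without sequence.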

Additional observations from a re-analysis of the deposited data

Results flagged for a closer look

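Among the 35 named genes in 6 groups, 210 sets of values were looked at, and in 11 of them 1 animal lay far from the rest of its group by Dixon's criterion on the variance-stabilized values, of which chance gives about 1 in 20 groups. Values are CPM, each with the nearest other animal of its group.

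Basement membrane genes gave 4 of the 11. COL4A6 was 24.8 in LFH animal 27 (next 11.7) and 5.003 in HFL/HFH animal 30 (next 1.83). LFH animal 25 was highest of its group for both LAMC1, at 73.9 (next 50.8), and LAMC3, at 9.46 (next 6.01).

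HFL/LFL animal 44 stood above its group for EFEMP2, at 136.5 (next 67.7), and for MFAP2, at 56.8 (next 26.2). Its summed stellate cell and myofibroblast list was 1195, the highest of HFL/LFL, and the part of this was not tested. THBS1 was 88.2 in HFL/LFL animal 17 (next 30.2), SPARC 1082 in HFL/HFH animal 15 (next 779), THBS3 2.94 in HFL/LFH animal 32 (next 1.33) and COL6A5 28.5 in HFL/HFH animal 84 (next 1.85). COL22A1 was 0.0994 in LFH animal 79, which is 2 counts, and 0 in the other LFH animals.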

How the results depend on the processing

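The counts of matrix genes in the 3 feed comparisons stayed within 1.5 times the reported ones under every alternative run, and no single-gene result among the called or smallest-p ones changed direction. With 1 animal left out they were 33 to 35 (HFH over LFH), 25 to 29 (HFL/HFH over HFL/LFH) and 23 to 27 (HFL/HFL over HFL/LFL). The genes higher in each of the 3 were 16 to 19 and those lower 4 to 5, with alternatives added to this count after seeing the data. The vitC and LFH comparisons moved more. HFL/LFL over HFL/LFH called 1 gene by DESeq2, 2 by limma voom and 0 to 1 with 1 animal left out. HFL/HFL over HFH called 0 with only the groups compared, 5 by DESeq2, 6 by limma voom and 0 to 4 with 1 animal left out (0 without HFH animals 61, 1, 6 or 14 or HFL/HFL animals 93, 12 or 81, and 4 without HFH animal 47 or 88). HFL/LFH over LFH called 1 by DESeq2. HFL/LFL over LFH called 3 with no filter and 3 to 5 with 1 animal left out (3 without LFH animals 64, 92 or 79 or HFL/LFL animals 49 or 44). HFL/HFL over HFL/HFH and the interaction called 0 throughout. The cause was not tested. Of single-gene results, 65 of those with 1 animal left out and 13 of those under other settings lost their call, while 7 and 8 gained one and 1612 and 644 kept their side of the threshold. No paired analysis was possible because each animal belongs to a single group. At these depths a level under 0.0626 to 0.170 CPM cannot be told from 0, which limits COL2A1, COL9A1, COL22A1, COL26A1 and MFAP5.1.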
